A study of Mus musculus with 12 samples.

Results

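The type I interferon stimulated genes described here are 40 genes known to be induced by interferon alpha and beta, and 37 of them could be measured in mouse liver after knockdown of Grb14. A member was measured when the platform annotation paired at least 1 probe set with its symbol alone, and the 37 genes are part of 19938 genes tested in all. The only listed probe set of Isg15, a ubiquitin-like protein that is attached to other proteins, carries the symbol of a predicted gene as well. The same holds for Oas1g, whose probe set is shared with Oas1a. Ifi44 is not paired with a probe set in the annotation used here. No value is given for these 3 genes.

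The livers came from 12 C57Bl/6J mice, an inbred strain, that received recombinant adenovirus by vein at 10 weeks of age. In 6 mice the virus carried a scrambled short hairpin RNA (sh scramble) and in 6 mice a hairpin that targets Grb14 (sh Grb14), an adapter that binds and inhibits the activated insulin receptor. All 12 mice therefore carried the virus, and each fed mouse gave 1 liver sample, hybridised to its own array, 7 days after injection. Livers without virus were not analysed here. The labels name 1 hairpin per group. Loss of Grb14, other effects of its hairpin and any difference between the viruses given to the groups therefore cannot be told apart. Levels are log2 values on the array, on which a difference of 1 is a 2-fold change. Grb14 itself lay between 10.08 and 10.25 in sh scramble livers and between 8.02 and 8.44 in sh Grb14 livers, 3.75-fold lower by the group means. Pearson's r over the genes tested, which share their arrays and are no replicates, was 0.991 to 0.998 for pairs of mice from 1 group and 0.940 to 0.959 for pairs from both groups. Alb, the hepatocyte product albumin, stood at 13.92 ± 0.024 (SD, n = 6) in sh scramble and 13.95 ± 0.037 (SD, n = 6) in sh Grb14 livers, near the top of the scale.

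Cells release type I interferon when sensors of foreign or misplaced nucleic acid are triggered. The cytokine binds a receptor made of IFNAR1 and IFNAR2, the kinases JAK1 and TYK2 phosphorylate STAT proteins, and a complex that includes STAT2 and IRF9 enters the nucleus and binds the interferon-stimulated response element of target promoters. The targets degrade viral RNA, block viral translation and assembly, and include the sensors and transcription factors of the pathway itself. Adenoviral vectors can engage this pathway in the liver, in hepatocytes as well as in macrophages and endothelial cells.

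The response element is shown first, because its letters are shared by members of several families. RefSeq promoters of build GRCm38.p6, from 250 bases before to 50 bases after each annotated start, were found for 28 of the 37 measured members. The core of the element was searched on both strands as GAAA, any 2 bases and GAAA again. It was present in at least 1 promoter of 12 of these 28 members (42.9%), and in 1079 of 27025 genes of the whole promoter table (3.99%). Over single promoters the share was 3.44%. For the 7 members with a match in the last 160 bases before the start, that stretch follows 5′ to 3′ on the strand of the gene, with the matching letters in capitals.
Ifit1, chr19:34640729-34640888, plus strand: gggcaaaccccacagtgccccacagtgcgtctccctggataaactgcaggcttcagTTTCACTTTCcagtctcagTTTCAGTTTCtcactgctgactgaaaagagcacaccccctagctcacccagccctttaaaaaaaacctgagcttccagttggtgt
Ifit3, chr19:34583369-34583528, plus strand: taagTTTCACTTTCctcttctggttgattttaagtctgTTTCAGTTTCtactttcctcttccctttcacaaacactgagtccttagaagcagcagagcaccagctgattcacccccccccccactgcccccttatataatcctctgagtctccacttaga
Rsad2, chr12:26456453-26456612, minus strand: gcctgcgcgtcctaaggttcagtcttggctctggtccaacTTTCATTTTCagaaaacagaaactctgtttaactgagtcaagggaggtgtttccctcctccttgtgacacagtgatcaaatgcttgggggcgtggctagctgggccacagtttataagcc
Oas3, chr5:120777660-120777819, minus strand: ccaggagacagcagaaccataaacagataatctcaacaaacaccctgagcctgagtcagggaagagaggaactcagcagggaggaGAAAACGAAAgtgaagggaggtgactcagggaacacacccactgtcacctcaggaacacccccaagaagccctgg
Oas1a, chr5:120907526-120907685, minus strand: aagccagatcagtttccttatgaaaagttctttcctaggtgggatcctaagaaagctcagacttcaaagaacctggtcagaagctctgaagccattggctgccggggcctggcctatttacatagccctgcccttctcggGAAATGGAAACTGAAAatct
Bst2, chr8:71537473-71537632, minus strand: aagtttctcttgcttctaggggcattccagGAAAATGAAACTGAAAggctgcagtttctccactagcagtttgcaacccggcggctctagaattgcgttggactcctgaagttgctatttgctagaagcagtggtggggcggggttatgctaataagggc
Trim30a, chr7:104465194-104465353, minus strand: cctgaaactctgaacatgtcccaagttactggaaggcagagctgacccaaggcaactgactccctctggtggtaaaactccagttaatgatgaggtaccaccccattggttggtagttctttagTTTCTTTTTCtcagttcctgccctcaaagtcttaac
A match on the other strand reads TTTC, any 2 bases and TTTC. Ifit1 and Ifit3, antiviral genes of 1 family, each held 2 separate matches. In Oas1a and Bst2 the 2 matches overlapped, so that the spaced repeat ran on for 1 more unit. The match of Rsad2 began 120 bases before the start, and that of Oas3 75 bases before it.

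**Figure D1:**
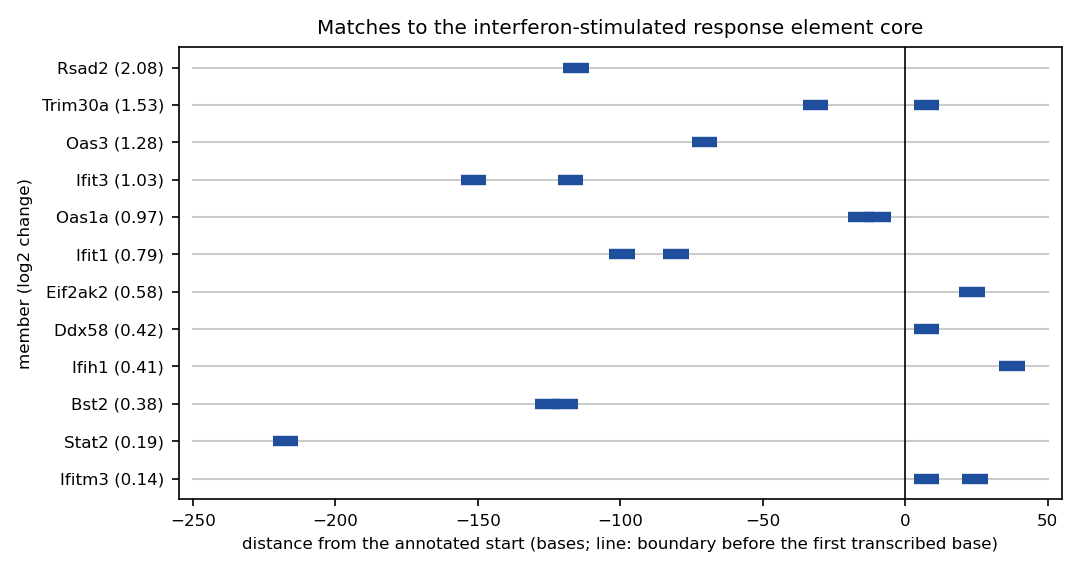
Each grey line is the promoter window of 1 of the 12 members with a match to the response element core, from 250 bases before to 50 bases after the annotated start, and blue bars mark the matches. Trim30a has 2 annotated starts, drawn on 1 line. Members are ordered by their log2 change, which is printed beside the name, and matches lie on both sides of the start.

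Of the other 5 members with a match, Stat2 held it 222 bases before the start, while Ddx58, Ifih1, Ifitm3 and Eif2ak2 held theirs after the start. The members with a match changed between 0.14 and 2.08 on the log2 scale, with a median of 0.69. The 16 members without one changed between 0.19 and 2.07, with a median of 1.05. Both ranges cover small and large changes, and no test was made of this description. A second motif, the gamma-activated site searched as TTC, any 3 bases and GAA, which reads the same on both strands, was found in 9 of the 28 members (32.1%) and in 9.55% of all genes. Its letters overlapped those of the response element core in Bst2 and Ifitm3. A match is a run of letters and not a bound site.

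A single sh Grb14 mouse stood apart for these genes, and the comparisons that turn on it are given with and without it. Mouse 3 had the highest value of its group in 34 of 37 members (91.9%), whereas it was highest in 13.6% of all genes tested. The exceptions were Isg20, Trim25 and Ifitm3. Its excess over the mean of the other 5 sh Grb14 mice was above 0 in all 37 members, with a median of 0.28 and a range of 0.042 to 0.75, the last in Mx1. Mice 4 and 5 were at the other end: mouse 4 was lowest in 15 members and mouse 5 in 16. Among sh scramble mice the order was less uniform, with mouse 5 highest in 17 members and mouse 6 in 10, and mice 5 and 6 were highest in 10.9% and 24.1% of all genes.

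**Figure D2:**
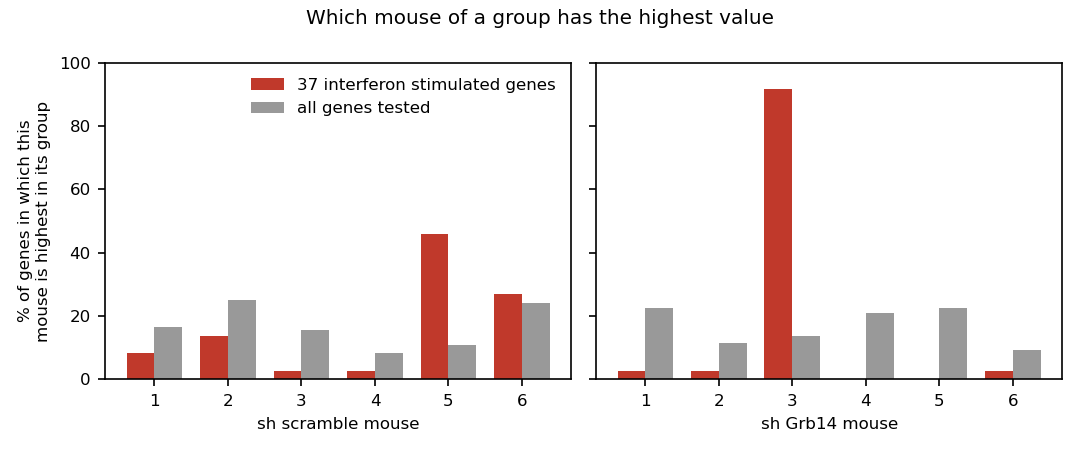
Bars give the percentage of genes in which a mouse has the highest value of its group, for the 37 interferon stimulated genes (red) and for all genes tested (grey), with sh scramble mice on the left and sh Grb14 mice on the right. sh Grb14 mouse 3 reaches 91.9% among the members and 13.6% among all genes.

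Interferon stimulated genes were higher in sh Grb14 livers almost throughout the list. By limma's test with Benjamini-Hochberg adjustment over all genes, 36 of 37 measured members rose, 0 fell and 1, Mx2, did not pass the threshold of 0.05. Of all genes tested, 65.3% passed in either direction, 25.8% rose and 39.5% fell. The median change of the members was 0.97, against −0.10 for all genes. The groups did not overlap in 33 members, each with the smallest exact permutation p that 6 against 6 mice can give (two-sided p = 0.00216), and 20.3% of all genes were higher and 20.8% lower without overlap. At least 2-fold rises were seen in 18 members, against 6.37% of all genes. Rises of at least 4-fold were seen in 2 members, and 12 members changed by less than 1.5-fold. The mean log2 level over the 37 members lay between 8.88 and 8.99 in sh scramble mice and between 9.78 and 10.14 in sh Grb14 mice.

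**Figure D3:**
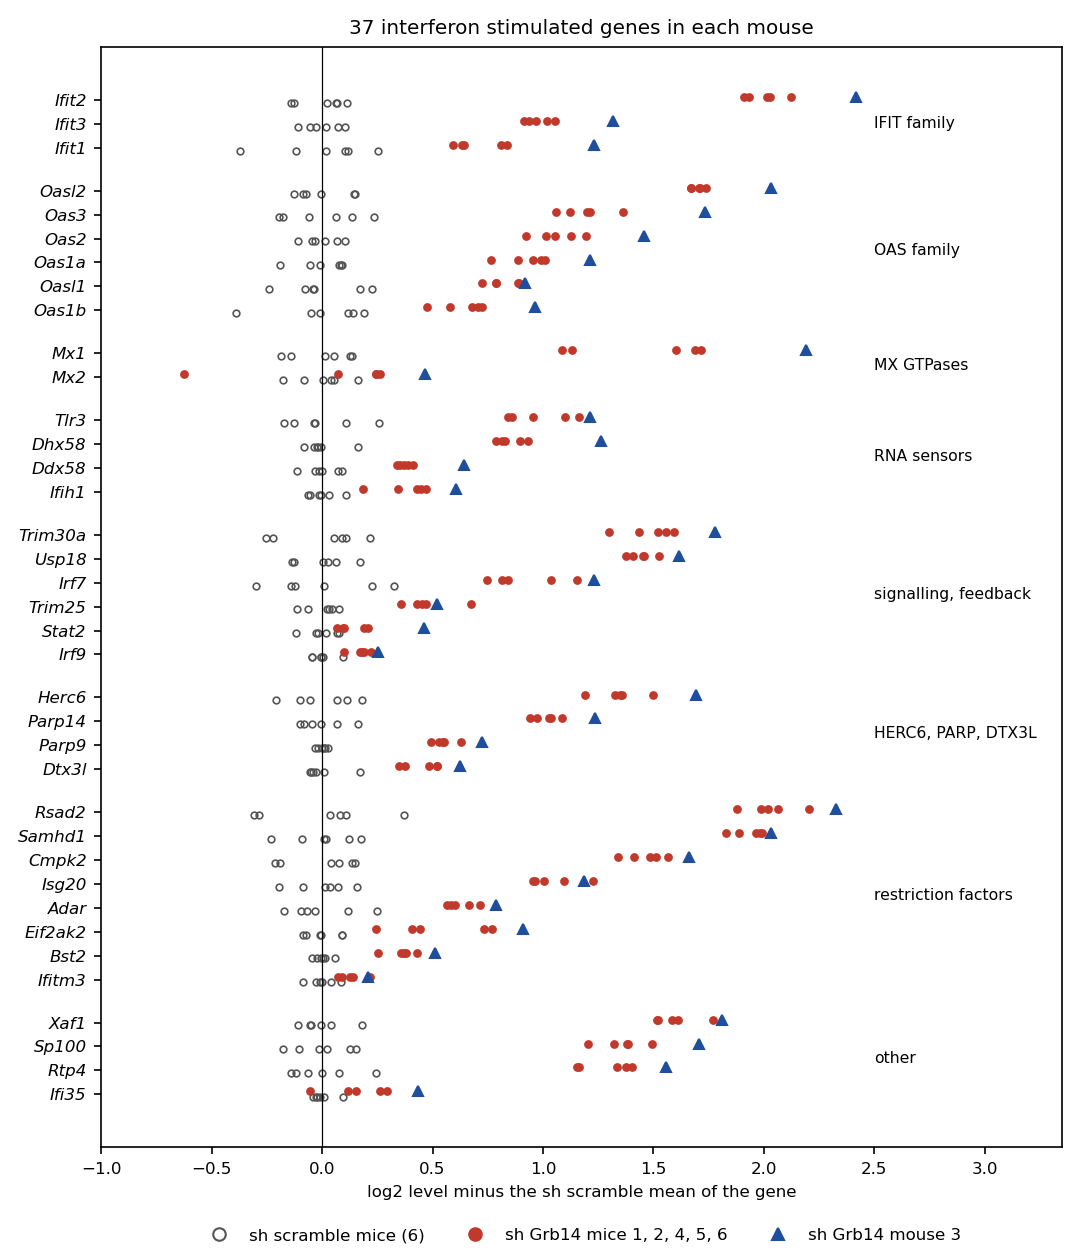
Each row is 1 of the 37 measured members, grouped by role, and the horizontal axis is the log2 level of a mouse minus the sh scramble mean of that gene. Open circles are the 6 sh scramble mice, filled circles 5 sh Grb14 mice and triangles sh Grb14 mouse 3. In 33 rows all sh Grb14 mice lie to the right of all sh scramble mice, and the exceptions are Mx2, Ifi35, Stat2 and Ifitm3.

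The liver samples are mixtures of cells, in which more cells of a type and more RNA per cell cannot be told apart. All 8 measured markers of monocytes and recruited macrophages rose, and their mean log2 level ranged from 8.21 to 8.49 in sh scramble and from 9.93 to 10.33 in sh Grb14 mice. Of 8 T cell markers 7 rose and 1 fell, with ranges of 7.07 to 7.24 and 8.48 to 8.78. Of 8 Kupffer cell markers 3 rose and 5 did not pass, and of 9 hepatocyte markers 8 fell and 1 did not pass, with ranges of 13.32 to 13.38 and 12.76 to 12.96. Of all genes tested 25.8% rose and 39.5% fell. After quantile normalization the Kupffer marker Folr2 (limma adjusted p = 0.158) no longer passed. The same held for the hepatocyte markers Apob (limma adjusted p = 0.265) and Cps1 (limma adjusted p = 0.0922). Plasmacytoid dendritic cells are strong producers of type I interferon, and Bst2 is one of their markers as well as a member. Of 7 other measured markers of these cells 5 rose, with a median change of 0.20. Their mean level ranged from 7.26 to 7.47 and from 8.37 to 8.53, but only 2 of the 7 rose at least 2-fold, Ly6d by 4.60 (SE 0.084) and Lair1 by 1.93 (SE 0.088). Siglech, which defines them in the mouse, rose by 0.20 (SE 0.065; limma adjusted p = 0.0121). No value on the array is 0 and no detection call was made. The part of these cells in the rises of the members was not tested.

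sh Grb14 mouse 3 was also highest in 28 of 42 other interferon-inducible genes and in 9 of 16 genes of the interferon-gamma list, and in 6 of 8 monocyte and macrophage markers. It was highest in 10 of 18 sensing adapters, kinases and IRFs, 7 of 16 MHC class I genes and 5 of 10 NK and cytotoxic markers. The lowest counts were 0 of 8 Kupffer cell markers, 0 of 15 interferon genes, 0 of 5 cholangiocyte markers, 1 of 9 neutrophil markers and 1 of 8 T cell markers. The share over all genes tested was 13.6%, and low counts in lists this short cannot be told apart from it. Without mouse 3, 36 members rose as before, the median change was 0.92 and 33 members did not overlap. On the log2 scale the change of Mx1 moved most, from 1.57 to 1.44, and as a ratio among the called members that of Stat2 did, from 0.19 to 0.13. What set this mouse apart was not tested.

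The IFIT proteins are antiviral, and IFIT1 binds viral RNA that lacks the cap marks of the host and blocks its translation. Ifit2 ranged from 7.51 to 7.76 with a median of 7.69 in sh scramble livers. In sh Grb14 livers it ranged from 9.55 to 10.06 with a median of 9.67. The groups were far apart, and Ifit2 rose by 2.07 (SE 0.079; 4.2-fold; limma adjusted p = 8.82e-13). Ifit1 had the smallest rise of the family. It went from 8.25 to 8.88 (median 8.69) in sh scramble to 9.22 to 9.86 (median 9.35) in sh Grb14 livers, where the top value belongs to mouse 3, and rose by 0.79 (SE 0.11; limma adjusted p = 9.22e-06). Ifit3, next to Ifit2 in gene order, rose by 1.03 (SE 0.064).

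Oligoadenylate synthetases make the short messenger that activates RNase L, which cuts RNA in infected cells. All 6 measured members of the family rose without overlap, against 20.3% of all genes tested. Oasl2, a family member with ubiquitin-like domains, ranged from 8.63 to 8.90 (median 8.71) in sh scramble livers. It ranged from 10.42 to 10.79 (median 10.46) in sh Grb14 livers and rose by 1.75 (SE 0.067; 3.38-fold). Of these 6 mice, 5 lay within 10.42 to 10.49 and mouse 3 stood above them. Oas3 and Oas2, neighbours in gene order, rose by 1.28 (SE 0.10) and 1.13 (SE 0.076), and Oas1a and Oasl1 by 0.97 (SE 0.072) and 0.83 (SE 0.069). Oas1b, of which C57BL/6 mice carry a truncated form, ranged from 5.99 to 6.57 (median 6.44) in sh scramble and from 6.86 to 7.35 (median 7.08) in sh Grb14 livers. It rose by 0.69 (SE 0.098; limma adjusted p = 1.11e-05). Oas1 genes are near-identical copies, so signal of one can reach the probes of another.

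The dynamin-like GTPases Mx1 and Mx2 gave different readings. Mx1, a nuclear restriction factor of influenza virus that is defective in C57BL/6 mice, ranged from 6.22 to 6.55 (median 6.44) in sh scramble livers. In sh Grb14 livers it spread from 7.49 to 8.60 (median 8.05). Even the lowest sh Grb14 value was above all sh scramble values, and Mx1 rose by 1.57 (SE 0.15; limma adjusted p = 7.24e-08). Mx2 ranged from 6.06 to 6.40 (median 6.26) in sh scramble and from 5.61 to 6.70 (median 6.48) in sh Grb14 livers. Of the 6 sh Grb14 values 4 were above all sh scramble values, 1 lay among them and 1, that of mouse 4, was below them all. The change of 0.11 (SE 0.14) did not pass (limma adjusted p = 0.483, range over alternatives 0.00851 to 0.810; exact permutation p = 0.558). Without mouse 4 Mx2 changed by 0.26 and passed (limma adjusted p = 0.00851), and without mouse 3 it changed by 0.039 (limma adjusted p = 0.810).

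Of the 4 RNA sensors among the members, Tlr3, which reads double-stranded RNA in endosomes, had the largest rise. It ranged from 8.27 to 8.70 (median 8.4) in sh scramble and from 9.28 to 9.65 (median 9.47) in sh Grb14 livers, a change of 1.02 (SE 0.081; limma adjusted p = 8.23e-09). Dhx58, a regulator of the cytosolic RNA helicases, rose by 0.92 (SE 0.072). The helicases themselves rose less than 1.5-fold, Ddx58 (RIG-I) by 0.42 (SE 0.053) and Ifih1 (MDA5) by 0.41 (SE 0.058). Ifih1 ranged from 10.19 to 10.36 (median 10.25) in sh scramble and from 10.44 to 10.86 (median 10.70) in sh Grb14 livers. The groups of Ifih1 were close but separate.

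The factors that carry the signal split by size of change. Stat2 and Irf9, which belong to the complex that binds the response element, were among the members with the smallest rises. Irf9 ranged from 9.05 to 9.19 (median 9.09) in sh scramble and from 9.20 to 9.35 (median 9.28) in sh Grb14 livers, and rose by 0.19 (SE 0.042; limma adjusted p = 0.00112). Stat2 ranged from 9.95 to 10.14 (median 10.06) and from 10.13 to 10.52 (median 10.21), and rose by 0.19 (SE 0.061; limma adjusted p = 0.0138). Its groups overlapped in 1 sh Grb14 mouse. Irf7, a transcription factor that is itself induced and amplifies interferon production, rose by 0.97 (SE 0.10).

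Trim30a and Usp18 are feedback regulators, and both were separate between the groups. Trim30a, a ubiquitin ligase that dampens Toll-like receptor signalling, ranged from 9.17 to 9.64 (median 9.50) in sh scramble livers. It ranged from 10.72 to 11.21 (median 10.96) in sh Grb14 livers and rose by 1.53 (SE 0.087; 2.89-fold; limma adjusted p = 1.15e-10). Usp18, which removes ISG15 from proteins and restrains the receptor, lay between 9.50 and 9.81 and between 11.01 and 11.25 in the respective groups. Trim25, the ligase that activates RIG-I, rose by 0.48 (SE 0.052).

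Herc6, the main ligase that attaches ISG15 in mice, rose most in a group of 4 members made of Herc6, Parp14, Parp9 and Dtx3l. It ranged from 9.17 to 9.56 (median 9.39) in sh scramble and from 10.57 to 11.07 (median 10.73) in sh Grb14 livers, a rise of 1.40 (SE 0.080; limma adjusted p = 1.17e-10). Dtx3l and Parp9 form a ubiquitin ligase complex and lie beside Parp14 in gene order. Dtx3l ranged from 10.34 to 10.57 (median 10.36) in sh scramble and from 10.74 to 11.02 (median 10.90) in sh Grb14 livers, a rise of 0.48 (SE 0.052). Parp9 rose by 0.58 (SE 0.043), and Parp14, an ADP-ribosyltransferase, by 1.05 (SE 0.056). All 4 were higher without overlap between the groups, against 20.3% of all genes tested.

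Restriction factors rose by 0.14 to 2.08. Rsad2 (viperin), an enzyme that makes a chain-terminating nucleotide, had the largest rise of all members. It ranged from 8.63 to 9.31 (median 9.0) in sh scramble and from 10.82 to 11.27 (median 10.98) in sh Grb14 livers, and rose by 2.08 (SE 0.10; 4.23-fold; limma adjusted p = 2.27e-11). Cmpk2, a nucleotide kinase that is its neighbour in gene order, rose by 1.5 (SE 0.073). Samhd1, which depletes the nucleotides that viruses need, rose by 1.95 (SE 0.061; 3.86-fold) and was tight in sh Grb14 livers, from 11.59 to 11.79. Isg20, an exonuclease, rose by 1.07 (SE 0.066), Adar, which edits double-stranded RNA, by 0.65 (SE 0.067), and Eif2ak2, the kinase PKR that stops translation, by 0.58 (SE 0.094).

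Membrane factors moved little. Bst2 (tetherin), which holds budding virus at the surface, rose by 0.38 (SE 0.043) and its groups did not overlap. Ifitm3, which blocks the fusion of virus with endosomes, ranged from 12.74 to 12.91 (median 12.83) in sh scramble and from 12.91 to 13.05 (median 12.96) in sh Grb14 livers. Its rise of 0.14 (SE 0.035; limma adjusted p = 0.00243) is the smallest that passed, with 5 of 6 sh Grb14 mice above all sh scramble mice. Values this near the top of the scale can be compressed.

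In the remaining group Xaf1, a pro-apoptotic antagonist of XIAP, rose most. It ranged from 7.05 to 7.34 (median 7.13) in sh scramble and from 8.68 to 8.97 (median 8.76) in sh Grb14 livers, a rise of 1.64 (SE 0.066; 3.11-fold; limma adjusted p = 1.91e-12). Sp100, a component of nuclear bodies, rose by 1.41 (SE 0.076) and Rtp4, a chaperone of receptors, by 1.33 (SE 0.075). Ifi35 ranged from 9.29 to 9.42 (median 9.31) in sh scramble and from 9.27 to 9.76 (median 9.54) in sh Grb14 livers. In sh Grb14 livers 1 mouse was below all sh scramble mice and 5 were above them. The rise of 0.20 (SE 0.066; limma adjusted p = 0.0139) did not pass after quantile normalization (0.14; limma adjusted p = 0.0536; range over alternatives 0.00110 to 0.0536).

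The interferon genes that could be measured did not rise. Of 20 listed genes of type I, type III and related interferons, 15 were measured and the rest have no value. Of the 15, 0 rose, 8 fell and 7 passed in neither direction. Their median change was −0.18, and 39.5% of all genes fell. Ifnb1, interferon beta, ranged from 5.20 to 5.62 (median 5.32) in sh scramble and from 5.15 to 5.63 (median 5.22) in sh Grb14 livers, and its change of −0.090 (SE 0.094) did not pass (limma adjusted p = 0.408). The largest falls were those of Ifnk, by 0.36 (SE 0.061), and Ifna2, by 0.36 (SE 0.10). Ifna9, Ifnab, Ifne, Ifnl2, Ifna4 and Ifna11 fell as well, by 0.18 to 0.35, whereas Ifna5, Ifna12, Ifna13, Ifna14, Ifna16 and Ifnz did not pass. After quantile normalization Ifna11 no longer passed (limma adjusted p = 0.0606), and Ifna5 passed as a fall (limma adjusted p = 0.00858). In 6 of the 15 genes both group means lay below the lower quartiles of the arrays (5.69 to 5.83), a range in which no detection call was made and changes can be understated. Of the 8 falls 3 lay there, those of Ifnk, Ifna4 and Ifna11. A level this low does not show whether interferon was made in the days before.

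**Figure D4:**
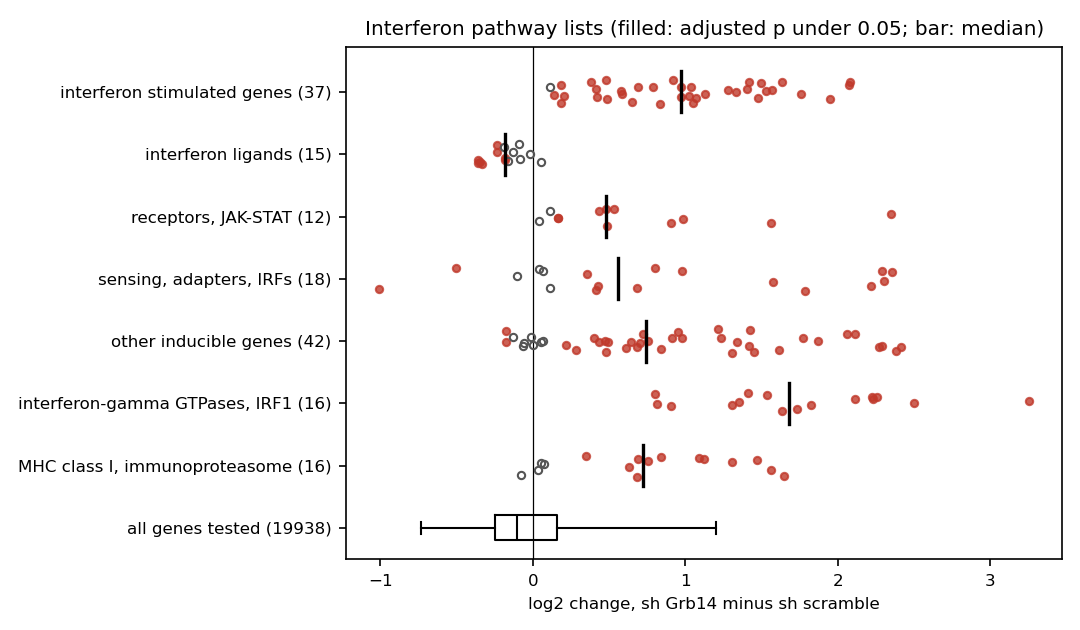
Each point is the log2 change of 1 gene, sh Grb14 minus sh scramble, for the members and 6 other lists, with the number of measured genes in parentheses. Filled points passed limma's test at an adjusted p under 0.05, vertical bars are medians, and the box for all genes spans the quartiles with whiskers at percentiles 5 and 95. The interferon genes lie at or below 0 apart from Ifna13 at 0.056, while the members lie between 0.11 and 2.08.

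The receptor subunits of type I interferon changed little on the array. Ifnar1 ranged from 9.77 to 9.94 (median 9.86) in sh scramble and from 9.79 to 9.97 (median 9.91) in sh Grb14 livers, a change of 0.041 (SE 0.042; limma adjusted p = 0.395). Ifnar2 ranged from 11.10 to 11.43 (median 11.26) and from 11.32 to 11.51 (median 11.38), a change of 0.12 (SE 0.054; limma adjusted p = 0.0701) that passed after quantile normalization (limma adjusted p = 0.0230). The kinases Jak1 and Tyk2 rose by 0.48 (SE 0.033) and 0.43 (SE 0.046). Among all genes tested 25.8% rose and 39.5% fell. In the list of receptors and JAK-STAT genes 10 of 12 rose, 0 fell and 2 did not pass. Its largest rises were Stat4, a STAT protein of lymphoid and myeloid cells, by 2.34 (SE 0.087), and Il10rb, a shared subunit of the receptors for interleukin 10 and type III interferon, by 1.56 (SE 0.072). Ifnlr1, the other subunit of the type III receptor, rose by 0.53 (SE 0.090).

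Sensing adapters and transcription factors moved both ways. Among the 18 that were measured, 12 were called higher, 2 lower and 4 in neither direction. Over all genes 25.8% were called higher and 39.5% lower. After quantile normalization Irf2 passed as a rise and Traf6 as a fall (limma adjusted p = 0.0229 and 0.0196). Mavs, the mitochondrial adapter through which RIG-I and MDA5 signal, ranged from 11.27 to 11.58 (median 11.42) in sh scramble and from 10.27 to 10.59 (median 10.37) in sh Grb14 livers, and fell by 1.01 (SE 0.064; limma adjusted p = 4.80e-10). Irf3, the factor that first switches on the interferon beta gene, ranged from 9.28 to 9.40 (median 9.36) and from 8.71 to 8.96 (median 8.84), and fell by 0.51 (SE 0.047; limma adjusted p = 6.77e-08). Both genes were lower in every sh Grb14 mouse than in any sh scramble mouse. The largest rises were Irf8, a transcription factor of myeloid cells, by 2.35 (SE 0.047), and Tlr8, an endosomal RNA sensor, by 2.30 (SE 0.13). Sting1, the adapter for cytosolic DNA, rose by 2.29 (SE 0.13), and Cgas, the enzyme that signals to it, by 0.42 (SE 0.077); this pair was picked after the values were seen. Cgas lay between 5.48 and 6.31, near the lower quartiles of the arrays. Irf8 and Tlr8 are also genes of immune cells, and the part of the immune cell markers given above in their rises was not tested.

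Other genes known to respond to interferon were mostly higher. Among the 42 that were measured, 33 were called higher, 2 lower and 7 in neither direction, and the median change was 0.74. Over all genes 25.8% were called higher and 39.5% lower. After quantile normalization Tdrd7 passed as a fall (limma adjusted p = 0.0471). Apobec3, a cytidine deaminase that restricts retroviruses, rose by 2.41 (SE 0.087) and Slfn9, of the Schlafen family, by 2.38 (SE 0.091). The falls were small: Pnpt1, a mitochondrial RNA exonuclease, fell by 0.18 (SE 0.055) and the GTPase gene Gm4951 fell by 0.18 (SE 0.063).

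Genes induced by interferon gamma, the type II cytokine of T and NK cells, were also higher. The list used for them also holds the cytokine gene Ifng and its receptor genes Ifngr1 and Ifngr2, which rose by 1.54 and 0.81. With these included, all 16 measured genes of the list rose, with a median change of 1.68. Over all genes tested 25.8% rose and 39.5% fell. Of 16 genes of the MHC class I pathway 12 rose and 4 did not pass, with a median of 0.72. The difference between these medians and that of the members was not tested. After quantile normalization the MHC class I genes B2m, Calr and Erap1 passed as rises too (limma adjusted p = 1.93e-05, 0.0260 and 0.0495). Cxcl10, a chemokine that both interferon types induce, rose by 3.26 (SE 0.13) and Gbp4, a guanylate-binding protein, by 2.5 (SE 0.12). Ifng itself ranged from 6.66 to 6.82 (median 6.73) in sh scramble and from 7.83 to 8.58 (median 8.15) in sh Grb14 livers, and rose by 1.41 (SE 0.099; limma adjusted p = 1.86e-09). The 2 genes with the largest rises in the MHC class I list were Tap1, a subunit of the peptide transporter, by 1.64 (SE 0.049) and H2-Q4, a non-classical class I gene, by 1.56 (SE 0.061). Many genes of these lists respond to both interferon types, so the lists do not separate the cytokines.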

How the data were processed

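Liver RNA of 12 mice was extracted with Trizol and 100 ng was labelled for Affymetrix whole-transcript arrays, per the labels' protocols. The authors deposited log2 values for 35556 probe sets; per the submitters' processing notes RMA and Partek were used, without a version or an order of steps. The chip description file and genome build are not given in the sources used here, and no scan date or batch is labelled.

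Probe sets were named through the platform annotation. Those with 1 symbol (21789) gave 19938 genes, each by its probe set with the highest mean over 12 arrays. Each measured member had 1 such probe set. All 12 arrays were fitted with limma 3.58.1 in R 4.3.3 (lmFit, eBayes with an intensity trend, no covariate), with Benjamini-Hochberg adjustment over all genes and a threshold of 0.05. The code of the fit was checked on simulated data with independent genes, few of them changed. Of the genes tested here 65.3% were called, so that check does not measure the error of these calls. Changes are sh Grb14 minus sh scramble, with the fit's standard error (SE); SD is over mice. The 6 arrays per group limit the precision. Exact permutation tests over mice were two-sided.

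The members, lists and tests were chosen with earlier results of these data known. The members with the largest and the smallest change of each role group, and any member not called, are given for every group by lowest, median and highest value; from other lists, the 2 largest rises and the 2 largest falls that passed, and the interferon genes and their receptors, are named. Cell type lists were also fixed for conventional dendritic cells, neutrophils, NK and cytotoxic cells, plasma and B cells, sinusoidal endothelial cells, stellate cells and cholangiocytes. Mice of a group are taken as separate animals from their labels.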

Additional observations from a re-analysis of the deposited data

Results flagged for a closer look

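Each of the 37 members and Grb14 was checked in both groups for a mouse whose gap to the next was large against the range of its group, 76 checks in all. A single check is flagged by chance about 1 time in 20, and 10 of the 76 were flagged. The genes share their arrays, so the checks are not independent and that rate does not measure an excess of flags. In sh Grb14 livers mouse 3 was high in 5 members: Oasl2 (10.79 against 10.42 to 10.49 in the other mice), Ifit3 (10.48 against 10.07 to 10.21), Dhx58 (9.85 against 9.38 to 9.53), Ddx58 (10.81 against 10.51 to 10.58) and Stat2 (10.52 against 10.13 to 10.27). Mouse 4 of that group was low in Mx2 (5.61 against 6.31 to 6.70). In sh scramble livers mouse 5 was high in Dhx58 (8.75 against 8.51 to 8.59), Dtx3l (10.57 against 10.34 to 10.40) and Ifi35 (9.42 against 9.29 to 9.33), and mouse 2 was high in Irf9 (9.19 against 9.05 to 9.10).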

How the results depend on the processing

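The alternatives were arrays centred on their medians, quantile normalization, limma without the intensity trend, robust eBayes, only genes above the median level of all probe sets, the probe set with the lowest mean or the mean of all probe sets, and each mouse left out in turn. Each member has 1 probe set, so the 2 choices of probe set could not move its value and say nothing on stability. Under the others, 625 values of the 37 members kept direction and side of the threshold, 0 reversed, and the other two were Ifi35 (0.14 after quantile normalization, no longer passing) and Mx2 (0.26 without sh Grb14 mouse 4, passing). The number of members that rose was 35 after quantile normalization, 35 among genes above the median level, where Oas1b and Mx2 were not tested, and 36 to 37 with a mouse left out; 0 fell throughout. Their median change ranged from 0.92 to 1.02. All genes called numbered 11877 to 13497 with a mouse left out, and 9182 when only 11845 genes were tested. Of the 6 other lists together, 12 genes fell, 10 to 15 with a mouse left out, and 6 among genes above the median level, where fewer were tested. The median change of all genes stayed between −0.11 and −0.030. No paired analysis was possible because the labels give the groups no shared replicate numbers. Depth does not apply to arrays; dim probe sets, such as 6 of the 15 interferon genes, have no detection call.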

Other observations

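The counts for the cell type lists not described above follow, and of all genes 25.8% rose and 39.5% fell. Of 10 markers of NK and cytotoxic cells 7 rose and 3 did not pass, with a median change of 1.23. Of 9 neutrophil markers 6 rose and 3 did not pass, with a median of 1.31, and of 8 markers of conventional dendritic cells 4 rose and 4 did not pass, with a median of 0.37. Markers of B and plasma cells changed by a median of 0.29, with 4 of 7 higher. Sinusoidal endothelial markers went both ways, with 3 of 8 higher and 5 lower, as did those of stellate cells and fibroblasts, with 5 of 9 higher and 2 lower. Among 5 cholangiocyte markers 1 rose and 4 did not pass. Some of these calls depended on the scaling of the arrays. After quantile normalization Ncr1 rose and Zbtb46 and Pax5 fell (limma adjusted p = 0.0145, 0.0101 and 0.0401). With arrays centred on their medians Cd209a, Zbtb46, Pax5 and Blk passed as falls.

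The spread of the mice within a group was described with and without sh Grb14 mouse 3. The SD was larger in sh Grb14 than in sh scramble livers for 25 of 37 members (67.6%), against 53.4% of all genes tested. Without sh Grb14 mouse 3, an alternative chosen after seeing the data, it was larger for 10 of 37 members (27.0%), against 53.7% of all genes. That mouse was highest of its group in 34 of 37 members and in 13.6% of all genes. Leaving it out therefore narrows the range of most members by construction, while the extreme sh scramble mice were kept. The lower count of members is no result on their spread.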
